A study of Mus musculus with 24 samples.

Results

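The 34 genes described here encode the steps by which heart cells bring pyruvate into the mitochondrion, oxidise it to acetyl-CoA, run the citric acid cycle and refill or drain its intermediates. They were chosen by the known function of their products and matched by symbol. All 34 symbols were present among the 10393 genes of the 16 h table, as 35 gene models because Nnt had a pair of models, and 33 symbols (34 models) were present among the 7723 genes of the 72 h table, which did not list Me2. The hearts came from wild-type mice that received 1 of 4 treatments: vehicle (V), doxorubicin (DOX, 25 mg/kg), hesperitin (H, 10 mg/kg each day) or both drugs (DOXH). Doxorubicin is an anthracycline cancer drug with known toxicity to the heart, and hesperitin is a citrus flavanone. Tissue was taken 16 h or 72 h after treatment, and poly(A) RNA was sequenced in 3 libraries per group. All 4 groups were analysed at 16 h and only vehicle and doxorubicin hearts at 72 h, which makes 18 libraries. The labels used here give no strain, sex or age, and do not say how many animals stand behind a sample or when hesperitin dosing began, so the spread behind each p-value is that between samples, which may be technical.

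Pyruvate from glycolysis and lactate crosses the inner mitochondrial membrane through a carrier made of MPC1 and MPC2 and is oxidised by the pyruvate dehydrogenase complex, which kinases of the PDK family switch off and phosphatases of the PDP family switch on. The citric acid cycle then oxidises the acetyl group and hands electrons to the respiratory chain. Anaplerotic enzymes such as pyruvate carboxylase refill the cycle, while transaminases and malate dehydrogenases carry reducing equivalents and amino groups between mitochondria and cytosol. The beating heart depends on this route together with fatty acid oxidation for its ATP.

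Expected counts summed to 9255651 to 11074450 per library in V, DOX and DOXH at 16 h, 17664060 to 19869050 in H, and 16607805 to 20587578 at 72 h. Every H library was deeper than every other library of 16 h. Comparisons with H carry this difference in depth, and its effect on them was not tested. All 12 heart muscle markers were present in both tables, and their summed level is given beside the results it moved with. One H library (replicate 1) held 147.2 CPM (counts scaled to a common library size with TMM factors) over 5 neutrophil markers against 8.35 and 8.94 CPM in the other H libraries, so results with H are given with and without it. The 3 DOXH libraries also lay far apart from each other. Levels are comparable within a table and not between the 2 times. Per kilobase of longest coding transcript, the members of 16 h V ranged from 848 ± 51.2 CPM for Idh2 and 724 ± 15.7 CPM for Mdh1 down to 6.82 ± 0.572 CPM for Acly and 2.84 ± 0.281 CPM for Me2 (mean ± SD, n = 3).

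The first question is what doxorubicin did to these transcripts. At 16 h, 15 of 35 members fell and 0 rose, against 16.6% of all genes tested that fell and 15.6% that rose (edgeR quasi-likelihood test, adjusted p under 0.05). At 72 h, 29 of 34 fell and 0 rose, against 27.2% and 26.5% of all genes. The median log2 fold change over the members was -0.19 at 16 h and -0.56 at 72 h, while the median over all genes tested was 0.022 and 0.008. Of the 34 models tested at both times, 15 fell at both and 14 fell at 72 h without passing the threshold at 16 h. The remaining 5 passed at neither time in the main fit: Idh2, Idh3g, Acly, Pdk1 and 1 of the Nnt models. In that fit none fell at 16 h alone. At 16 h DESeq2 also called Idh2 and Idh3g lower, and an edgeR fit of only V and DOX called Idh3g lower and Acly higher. Without each V or DOX library in turn, 11 to 14 members passed at 16 h, and 29 passed at 72 h under every one of the 6 omissions.

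**Figure D1:**
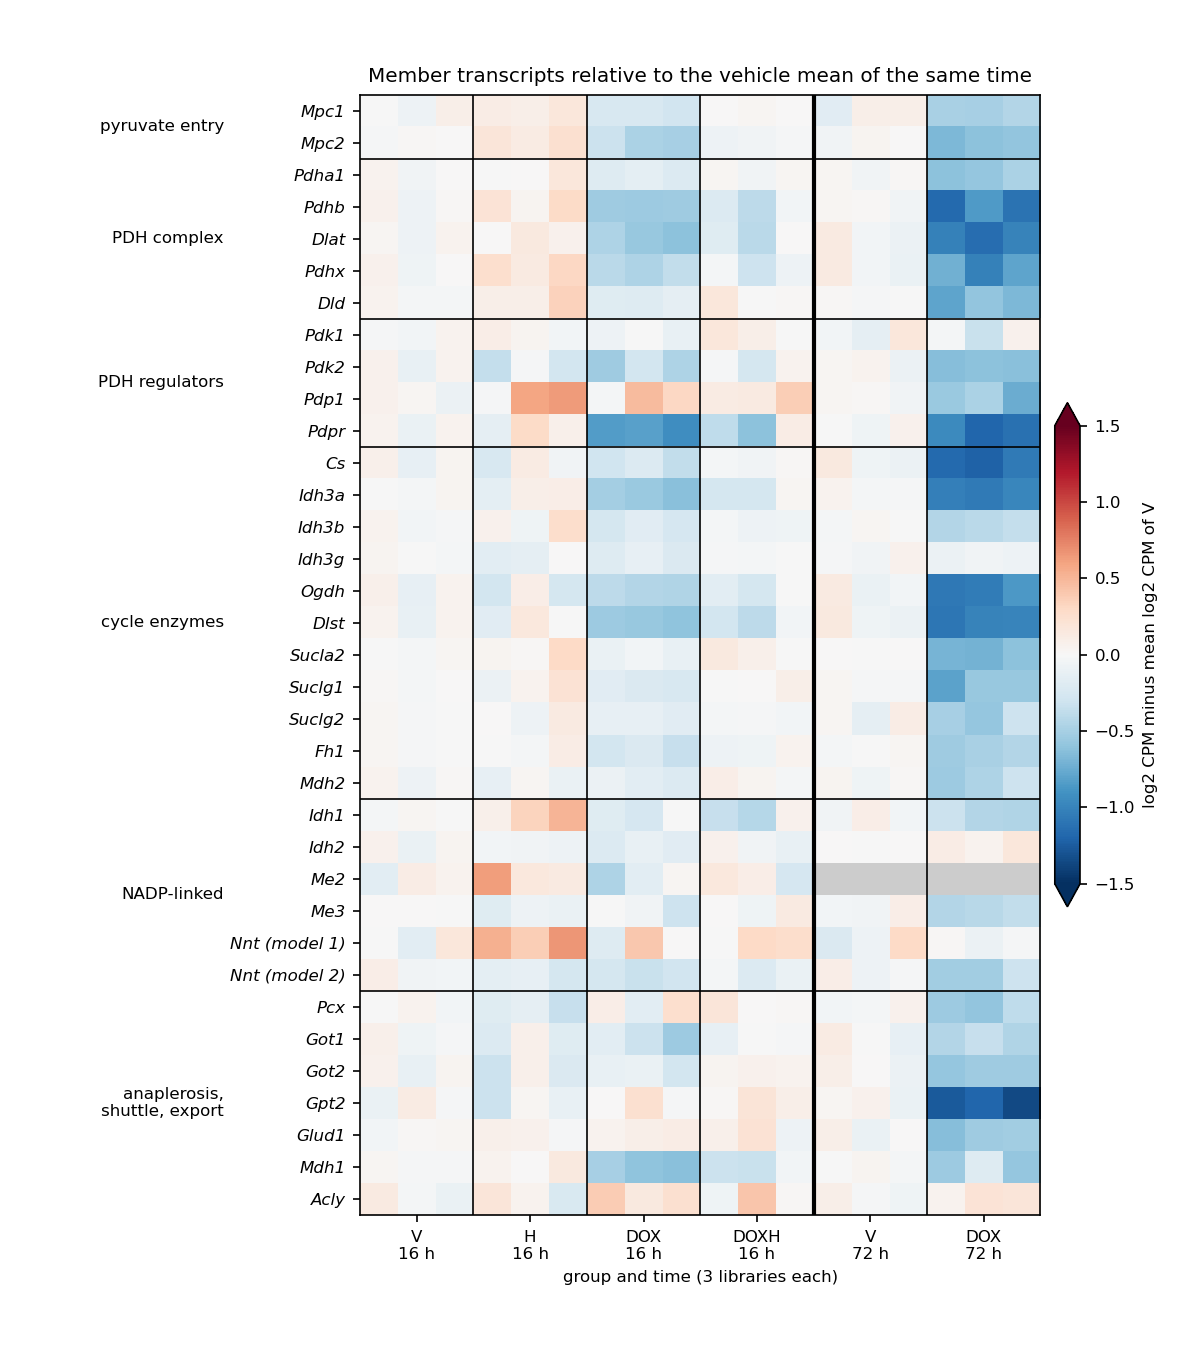
Log2 CPM of each member (rows, grouped by role) in each library (columns, 3 per group) minus the mean log2 CPM of V at the same time. Blue is below and red above the V mean, grey marks Me2, which the 72 h table does not list, and the colour scale ends at ±1.5. The DOX columns are mostly blue at 16 h and darker at 72 h, the DOXH columns lie nearer to V, and Idh2, Idh3g, Acly and Pdk1 stay pale at 72 h.

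Markers of heart muscle moved the same way as the members. In DOX at 16 h, 12 of 12 cardiomyocyte markers fell (median log2 fold change -0.78), and their summed level ran from 36780 to 39310 CPM against 63480 to 71900 CPM in V. At 72 h, 10 of 12 fell (median -1.10), with sums of 23070 to 27810 CPM in DOX and 54330 to 61650 CPM in V. Also at 72 h, 3 of 3 neutrophil markers, 5 of 8 endothelial and 3 of 6 macrophage markers rose, 1 of each of these last lists fell, and 5 of 5 erythroid markers fell. The neutrophil sum was 0.957 to 1.98 CPM in V and 26.4 to 133 CPM in DOX at 72 h, and the erythroid sum was 1436 to 3523 CPM and 20.6 to 33 CPM. The endothelial sum was 641 to 671 CPM in V and 799 to 871 CPM in DOX, and the macrophage sum 183 to 246 CPM and 277 to 334 CPM. Of 7 fibroblast markers, 2 rose and 1 fell, 2 of 8 mural markers fell, and 1 of 4 adipocyte markers rose. Over all genes 26.5% rose and 27.2% fell at 72 h, so these counts of 1 or 2 per list do not stand out. At 16 h, 2 of 5 erythroid, 2 of 8 endothelial and 2 of 8 mural markers fell, 1 of 7 macrophage markers rose and 1 fell, and 0 of 8 fibroblast and 0 of 2 adipocyte markers passed. With 16.6% of all genes lower and 15.6% higher at 16 h, counts of 2 of 8 or 1 of 7 do not stand out. Also at 16 h, 0 of 5 neutrophil markers passed, with sums of 21.9 to 68 CPM in V and 132 to 241 CPM in DOX. In bulk tissue, fewer heart muscle cells and less of these RNAs in each cell cannot be told apart. The part of these marker changes in the members' values was not tested.

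Both subunits of the mitochondrial pyruvate carrier fell at both times. Mpc2 (chr1:165460637-165481214, plus strand, GRCm38) read 209, 214 and 212 CPM in V and 169, 153 and 149.8 CPM in DOX at 16 h, and 223, 237 and 231 CPM in V and 144, 150.4 and 153 CPM in DOX at 72 h. Every DOX library was below every V library at both times. The log2 fold change was -0.43 ± 0.069 (± SE) at 16 h (edgeR adjusted p = 0.00269) and -0.63 ± 0.076 at 72 h (adjusted p = 0.000189). Mpc1 (chr17:8282904-8297661, plus strand) read 404, 384 and 429 CPM in V and 344, 342 and 331 CPM in DOX at 16 h, a log2 fold change of -0.26 (adjusted p = 0.0119) that missed the threshold without V replicate 3 (-0.22, adjusted p = 0.0541). Its 72 h values were 403, 481 and 481 CPM in V and 324, 322 and 334 CPM in DOX, and the log2 fold change was -0.48 (adjusted p = 0.00229). The groups did not overlap for Mpc1 at either time.

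The 5 genes of the pyruvate dehydrogenase complex all fell at 72 h, and 3 of them, Pdhb, Dlat and Pdhx, had fallen at 16 h. Over all genes, 27.2% fell at 72 h and 16.6% at 16 h. Pdhb encodes the beta subunit of the E1 component, which decarboxylates pyruvate (chr14:8165996-8173025, minus strand). It read 529, 479 and 510.3 CPM in V and 351, 348 and 349 CPM in DOX at 16 h, where the DOX libraries lay within a few CPM of each other and below all V libraries (-0.54 ± 0.093, edgeR adjusted p = 0.00339). Pdhb at 72 h read 496, 492 and 469.6 CPM in V and 217, 271 and 225 CPM in DOX, with DOX again below V throughout (-1.03 ± 0.10, adjusted p = 6.78e-05). Dlat, the E2 core that passes the acetyl group to coenzyme A (chr9:50634633-50659780, minus strand), read 344, 318 and 348 CPM in V and 244, 227 and 219 CPM in DOX at 16 h and 306, 272 and 263 CPM in V and 138, 127 and 139.8 CPM in DOX at 72 h. Its log2 fold changes were -0.55 and -1.05 (adjusted p = 0.0035 and 4.12e-05), with no overlap between groups at either time. Pdhx, which anchors E3 to the core, read 111, 102 and 107 CPM in V and 80.4, 76.9 and 82.2 CPM in DOX at 16 h (-0.42, adjusted p = 0.00603), and it fell by 44.3% at 72 h. In Pdhx, too, all DOX libraries of 16 h were below all V libraries.

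In the main fit, Pdha1 and Dld passed the threshold at 72 h only. Pdha1, the catalytic alpha subunit of E1 that the kinases phosphorylate, read 1216, 1131 and 1179.9 CPM in V and 1029, 1060.2 and 1018 CPM in DOX at 16 h. These groups did not overlap, but the difference of -0.18 ± 0.068 missed the threshold (adjusted p = 0.0589). It passed by DESeq2 (adjusted p = 0.02) and in an edgeR fit of only V and DOX (0.0239). At 72 h Pdha1 read 1143, 1083 and 1134.5 CPM in V and 729, 749 and 804 CPM in DOX and fell by 32.1% (adjusted p = 0.000607). Dld, the E3 dehydrogenase shared with the oxoglutarate dehydrogenase complex, read 438, 415 and 413 CPM in V and 371, 368 and 384 CPM in DOX at 16 h (-0.17, adjusted p = 0.128). An edgeR fit of only V and DOX called it lower at 16 h (adjusted p = 0.03). At 72 h Dld read 429, 418 and 421 CPM in V and 244, 280.4 and 265 CPM in DOX, a fall of 37.8% (adjusted p = 0.000194). At 16 h all DOX libraries were below all V libraries in Dld, too. The ratio of Pdhb to Pdha1 counts within a library was 0.431 ± 0.0061 in V and 0.337 ± 0.008 in DOX at 16 h (mean ± SD, n = 3), and 0.434 ± 0.02 and 0.313 ± 0.043 at 72 h. The ranges of this ratio did not overlap at either time, with 0.424 to 0.435 against 0.328 to 0.343 and 0.414 to 0.454 against 0.28 to 0.361. No test was run on the count ratios, which take no account of gene length and are read only between groups.

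Among the regulators of the complex, Pdpr and Pdk2 fell at both times, Pdp1 fell at 72 h and Pdk1 passed at neither time. Pdpr, the regulatory subunit of pyruvate dehydrogenase phosphatase (chr8:111094630-111137074, plus strand), read 111, 100.1 and 111 CPM in V and 59.6, 60.8 and 56.2 CPM in DOX at 16 h, the largest fall of any member at that time (-0.865 ± 0.16, edgeR adjusted p = 0.00439). At 72 h Pdpr read 85.9, 82.2 and 90.3 CPM in V and 44.3, 37.6 and 39.7 CPM in DOX (-1.09 ± 0.085, adjusted p = 3.21e-05). All DOX libraries of Pdpr were below all V libraries at both times. Pdk2, a kinase that inactivates the complex, read 314, 279 and 312 CPM in V and 209, 248 and 219 CPM in DOX at 16 h. The log2 fold change of -0.42 (adjusted p = 0.0168) missed the threshold without DOX replicate 1 (adjusted p = 0.0605), DOX replicate 3 (0.0509), V replicate 1 (0.0598) or V replicate 3 (0.057). At 72 h the Pdk2 values of 254, 258 and 233 CPM in V and 159, 162 and 160.4 CPM in DOX were far apart (-0.63 ± 0.078, adjusted p = 0.000216). Neither time had overlapping groups for Pdk2.

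Pdp1, the catalytic subunit of the phosphatase that reactivates the complex, read 32.7, 31.9 and 29.5 CPM in V and 30.7, 43.7 and 39 CPM in DOX at 16 h, where 1 DOX library lay among the V libraries and the others above them (0.27 ± 0.17, edgeR adjusted p = 0.241). At 72 h Pdp1 read 40.8, 40.3 and 38.5 CPM in V and 27, 28.6 and 23.8 CPM in DOX, with every DOX library below every V library (-0.59 ± 0.09, adjusted p = 0.000649). Pdk1, another of the inactivating kinases, read 193, 190.5 and 204 CPM in V and 186, 194 and 181 CPM in DOX at 16 h and 191, 179 and 222 CPM in V and 192, 155 and 205 CPM in DOX at 72 h. Its groups overlapped at both times, and its log2 differences were -0.066 ± 0.072 and -0.099 ± 0.12 (adjusted p = 0.499 and 0.512). Pdk4 and Pdp2, which are not members but belong to the same families, stood apart at 72 h. Pdk4 read 216, 163 and 225 CPM in V and 2269, 1168 and 2673 CPM in DOX at 72 h and rose (3.34 ± 0.34, adjusted p = 0.000452), after 331, 185 and 863 CPM in V and 2236, 1015 and 616 CPM in DOX at 16 h, where the groups overlapped (1.49 ± 0.68, adjusted p = 0.114). Pdp2, a second catalytic subunit of the phosphatase, read 35.7, 27.2 and 25 CPM in V and 7.89, 9.61 and 7.24 CPM in DOX at 72 h (-1.83 ± 0.16, adjusted p = 5.54e-05), a separation of the groups that the 16 h values of 27.4, 23.8 and 37.6 CPM in V and 36.9, 23.9 and 24.3 CPM in DOX did not show.

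**Figure D2:**
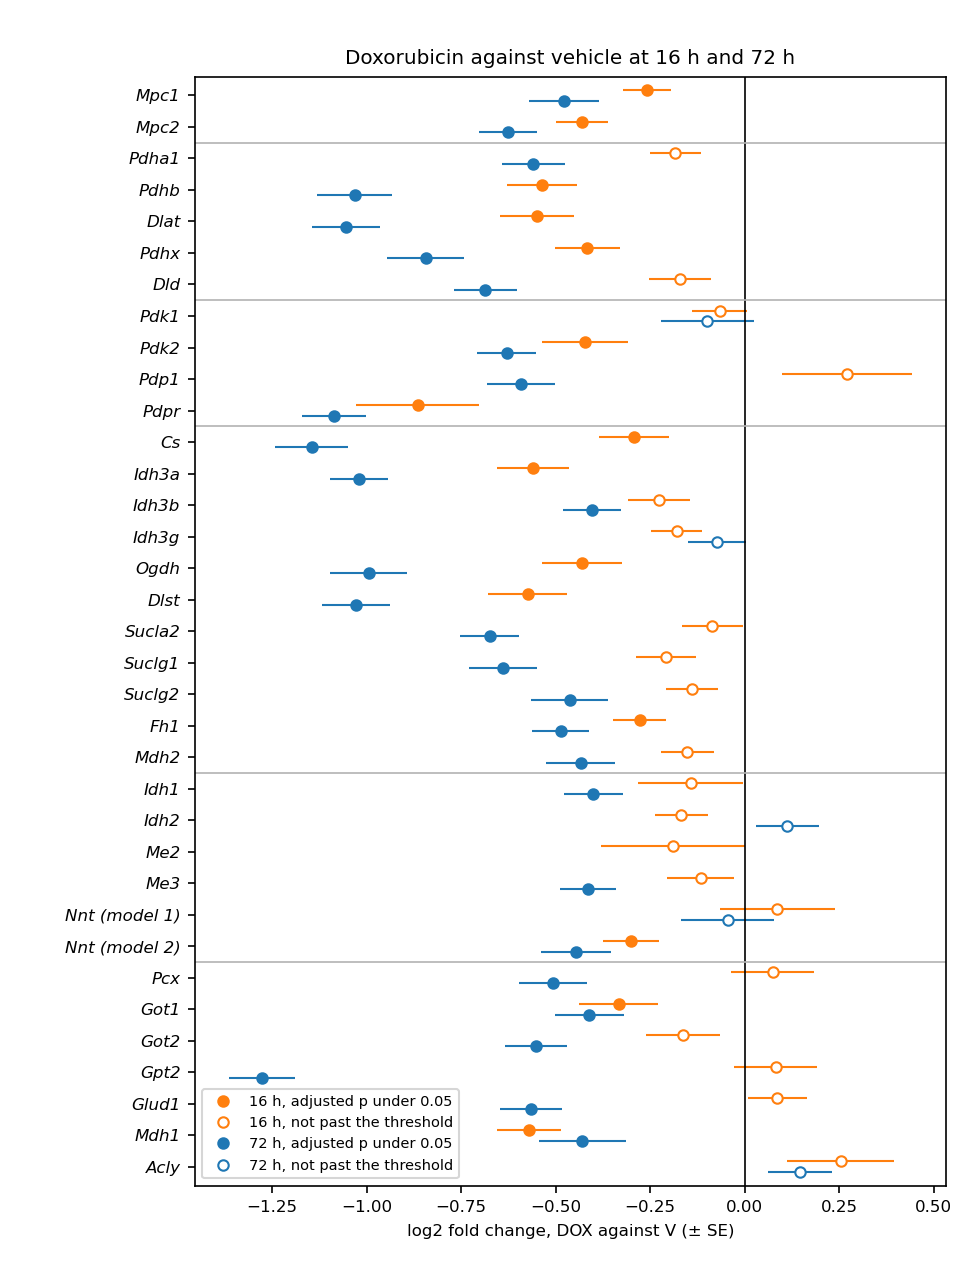
Log2 fold change of DOX against V for each member at 16 h (orange) and 72 h (blue), with bars of ± SE. Filled points passed an edgeR adjusted p of 0.05 and open points did not, and horizontal lines divide the roles. At 72 h, 29 of 34 points are filled and left of 0, and Gpt2 moves from 0.082 to -1.28.

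Of the 11 cycle enzymes, 5 fell at 16 h and 10 fell at 72 h, against 16.6% and 27.2% of all genes. Cs, citrate synthase, joins acetyl-CoA to oxaloacetate and opens the cycle (chr10:128337734-128362479, plus strand). It read 1214.5, 1059.6 and 1185 CPM in V and 939, 996 and 889 CPM in DOX at 16 h. The log2 fold change of -0.29 ± 0.093 (edgeR adjusted p = 0.0333) lost the threshold without DOX replicate 1 (adjusted p = 0.0806), DOX replicate 3 (0.102), V replicate 1 (0.115) or V replicate 3 (0.0975). At 72 h Cs read 973, 843 and 830.1 CPM in V and 392, 379.7 and 423 CPM in DOX, so that every DOX library was below every V library (-1.15 ± 0.096, adjusted p = 3.97e-05). At 16 h the lowest V library was above the highest DOX library by a small margin.

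The 3 subunits of the NAD-linked isocitrate dehydrogenase, which makes oxoglutarate from isocitrate, passed at different times in the main fit: Idh3a at both, Idh3b at 72 h and Idh3g at neither. Idh3a, the catalytic alpha subunit (chr9:54586334-54604661, plus strand), read 527, 517 and 545 CPM in V and 373, 361 and 344 CPM in DOX at 16 h (-0.56 ± 0.095, edgeR adjusted p = 0.00321). At 72 h Idh3a read 484, 458 and 462 CPM in V and 229.9, 225 and 237 CPM in DOX (-1.02 ± 0.077, adjusted p = 3.02e-05). Groups were fully separate at both times. Idh3b, the beta subunit, fell by 24.4% at 72 h (adjusted p = 0.00212) and missed the threshold at 16 h (-0.23, adjusted p = 0.0516). It passed at 16 h with RLE factors (edgeR adjusted p = 0.0479), by DESeq2 (0.0297) and in an edgeR fit of only V and DOX (0.0125). Its exons overlap those of Nop56 on the opposite strand, and the strand setting of the counting is not given in the sources used here, so its counts are uncertain. Idh3g, the gamma subunit (chrX:73778963-73786897, minus strand), read 314, 304 and 300.1 CPM in V and 268, 280.3 and 263 CPM in DOX at 16 h (-0.18 ± 0.067, adjusted p = 0.0578). This difference passed by DESeq2 (adjusted p = 0.0179) and in an edgeR fit of only V and DOX (0.0307). At 72 h Idh3g read 303, 298 and 323 CPM in V and 291, 296 and 293 CPM in DOX, where the DOX libraries lay just below V (-0.072 ± 0.077, adjusted p = 0.445). The count ratio of Idh3a to Idh3g was 1.73 ± 0.073 in V and 1.33 ± 0.057 in DOX at 16 h, and 1.52 ± 0.083 and 0.787 ± 0.026 at 72 h (mean ± SD, n = 3). The ratio was lower in every DOX library than in every V library at both times.

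**Figure D3:**
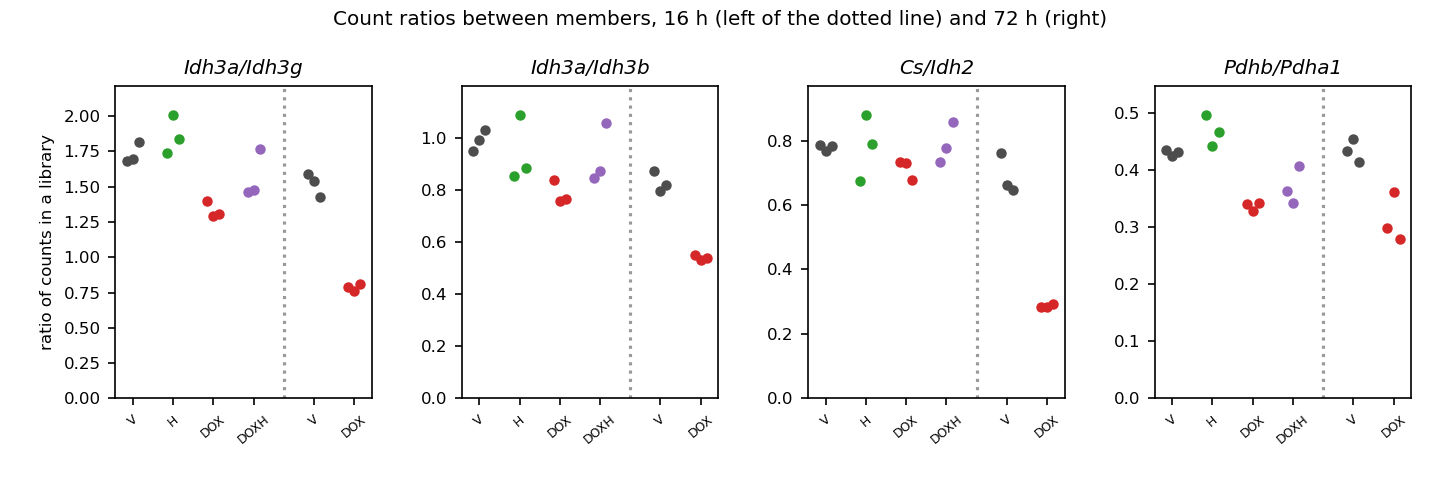
Ratio of the counts of 2 members within each library (y axis, no unit; 1 point per library) by group, with 16 h left and 72 h right of the dotted line. At 72 h the DOX points are below all V points in the 4 panels, for Cs to Idh2 at 0.284 to 0.294 against 0.647 to 0.76. Not all ratios computed are drawn. At 72 h Got1 to Got2 was higher in DOX (0.866 to 0.934 against 0.795 to 0.843). Mdh1 to Mdh2 overlapped (1.96 to 2.86 in DOX, 2.29 to 2.55 in V). Dlat to Pdha1, Sucla2 to Suclg2, Idh1 to Idh2 and Mpc2 to Mpc1 were lower in every DOX library.

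Ogdh and Dlst, the E1 and E2 components of the oxoglutarate dehydrogenase complex that makes succinyl-CoA, fell at both times. Ogdh (chr11:6291633-6356642, plus strand) read 2001, 1740.2 and 1974 CPM in V and 1453, 1401.5 and 1386 CPM in DOX at 16 h (-0.43 ± 0.11, edgeR adjusted p = 0.0119). At 72 h Ogdh read 1463, 1240.3 and 1290.1 CPM in V and 631, 641 and 731 CPM in DOX (-0.995 ± 0.10, adjusted p = 8.65e-05). Dlst (chr12:85110833-85134845, plus strand) followed with 504, 449.9 and 502 CPM in V and 332, 327 and 319.6 CPM in DOX at 16 h (-0.57 ± 0.10, adjusted p = 0.00371). At 72 h Dlst read 435, 378 and 372 CPM in V and 186, 197 and 198 CPM in DOX (-1.03 ± 0.09, adjusted p = 4.33e-05). In neither gene did the groups overlap at either time.

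Ogdh was also the member with a match to a promoter motif. RefSeq promoter windows of build GRCm38.p6 matched 30 of the 34 symbols, and the 250 bases before each start were searched on both strands for TNAAGGTCA, a site type bound by oestrogen-related receptors, and for CGCATGCG, the core of the site bound by NRF1, because both factors are known regulators of mitochondrial genes. TNAAGGTCA was found before 0 of 30 members, against 1.3% of all 27025 genes with a window and 0.758% of the 8316 of these in the count tables. CGCATGCG, which reads the same on both strands, was found before 1 of 30 members (3.33%), against 1.75% and 3.8%. The 49 bases before an Ogdh start are shown because they hold that match, which is in capitals and begins 14 bases before this start (chr11:6292509-6292557, plus strand).
Ogdh: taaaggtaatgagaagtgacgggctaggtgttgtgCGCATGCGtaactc
A match describes these letters alone, and the search covers only this window.

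The later steps of the cycle passed the threshold mostly at 72 h. Sucla2 and Suclg2 encode the ATP-forming and GTP-forming beta subunits of succinyl-CoA ligase, and Suclg1 their shared alpha subunit. Sucla2 read 535, 529.9 and 552 CPM in V and 503, 523 and 498 CPM in DOX at 16 h (-0.085, edgeR adjusted p = 0.433) and 542, 539.5 and 543 CPM in V and 332, 332 and 353 CPM in DOX at 72 h (-0.675 ± 0.077, adjusted p = 0.000136). Its DOX libraries lay far below V at 72 h and just below V at 16 h. Suclg1 fell by 35.8% and Suclg2 by 27.4% at 72 h, and neither passed at 16 h (adjusted p = 0.0644 and 0.134). Suclg1 did pass at 16 h by DESeq2 (adjusted p = 0.0339) and in an edgeR fit of only V and DOX (0.013). Fh1, fumarase, fell at both times, by 17.5% at 16 h and 28.7% at 72 h. The 16 h call of Fh1 (adjusted p = 0.0127) was lost without DOX replicate 3 (adjusted p = 0.0507). Mdh2, the mitochondrial malate dehydrogenase that closes the cycle, fell by 26% at 72 h (adjusted p = 0.00348) and differed by -0.15 at 16 h (adjusted p = 0.113).

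Among the NADP-linked dehydrogenases, the mitochondrial malic enzymes and the transhydrogenase, 1 of 6 gene models fell at 16 h and 3 of 5 fell at 72 h. Over all genes, 16.6% fell at 16 h, a share like that of these models, and 27.2% fell at 72 h. Idh2, the mitochondrial NADP-linked isocitrate dehydrogenase (chr7:80094846-80115392, minus strand), read 1547, 1378 and 1515 CPM in V and 1280.0, 1363 and 1308 CPM in DOX at 16 h, with DOX just below V (-0.17 ± 0.07, edgeR adjusted p = 0.0836). DESeq2 called it lower at 16 h (adjusted p = 0.0419). At 72 h Idh2 read 1281, 1275 and 1283 CPM in V and 1383, 1330.4 and 1438.5 CPM in DOX, every DOX library above every V library, a difference of 0.11 ± 0.083 that missed the threshold (adjusted p = 0.269). The count ratio of Cs to Idh2, neighbours in the cycle with aconitase between them, was 0.779 ± 0.0087 in V and 0.715 ± 0.031 in DOX at 16 h, and 0.689 ± 0.061 and 0.288 ± 0.0057 at 72 h (mean ± SD, n = 3). Idh1, the cytosolic and peroxisomal form, fell by 24.3% at 72 h (adjusted p = 0.00231) and Me3, a mitochondrial NADP-linked malic enzyme, by 24.9% (adjusted p = 0.00145). Neither passed at 16 h (-0.14 and -0.12). Me2, the NAD-linked malic enzyme, had the fewest counts of the members, 59 to 210 per library of 16 h, and its difference of -0.19 ± 0.19 did not pass (adjusted p = 0.463).

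Nnt, the transhydrogenase that uses the proton gradient to make NADPH, was split over a pair of gene models that share most of their span and strand on chromosome 13, so reads could be assigned to either. The model with most of the counts (ENSMUSG00000116207, chr13:119335528-119408952) read 377, 339 and 344 CPM in V and 293, 279 and 288 CPM in DOX at 16 h and 319.6, 282 and 295 CPM in V and 208, 209 and 241 CPM in DOX at 72 h. It fell at both times (-0.30 and -0.45, edgeR adjusted p = 0.0119 and 0.00328), with the 16 h call lost without V replicate 1 (adjusted p = 0.0548). The other model (ENSMUSG00000025453) read 74, 66.5 and 83.8 CPM in V and 65, 98.5 and 74.8 CPM in DOX at 16 h and 32.2, 35.6 and 45.9 CPM in V and 38, 35.3 and 37 CPM in DOX at 72 h, with overlapping groups and no call. With the counts of both models added, a choice made after the data were seen, Nnt read 405.5 to 450.7 CPM in V and 358.2 to 377.9 CPM in DOX at 16 h, and 317.9 to 351.8 CPM and 244 to 278.4 CPM at 72 h. The summed gene passed the threshold at both times (log2 fold change -0.22, edgeR adjusted p = 0.0216 at 16 h and -0.395, adjusted p = 0.00467 at 72 h).

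**Figure D4:**
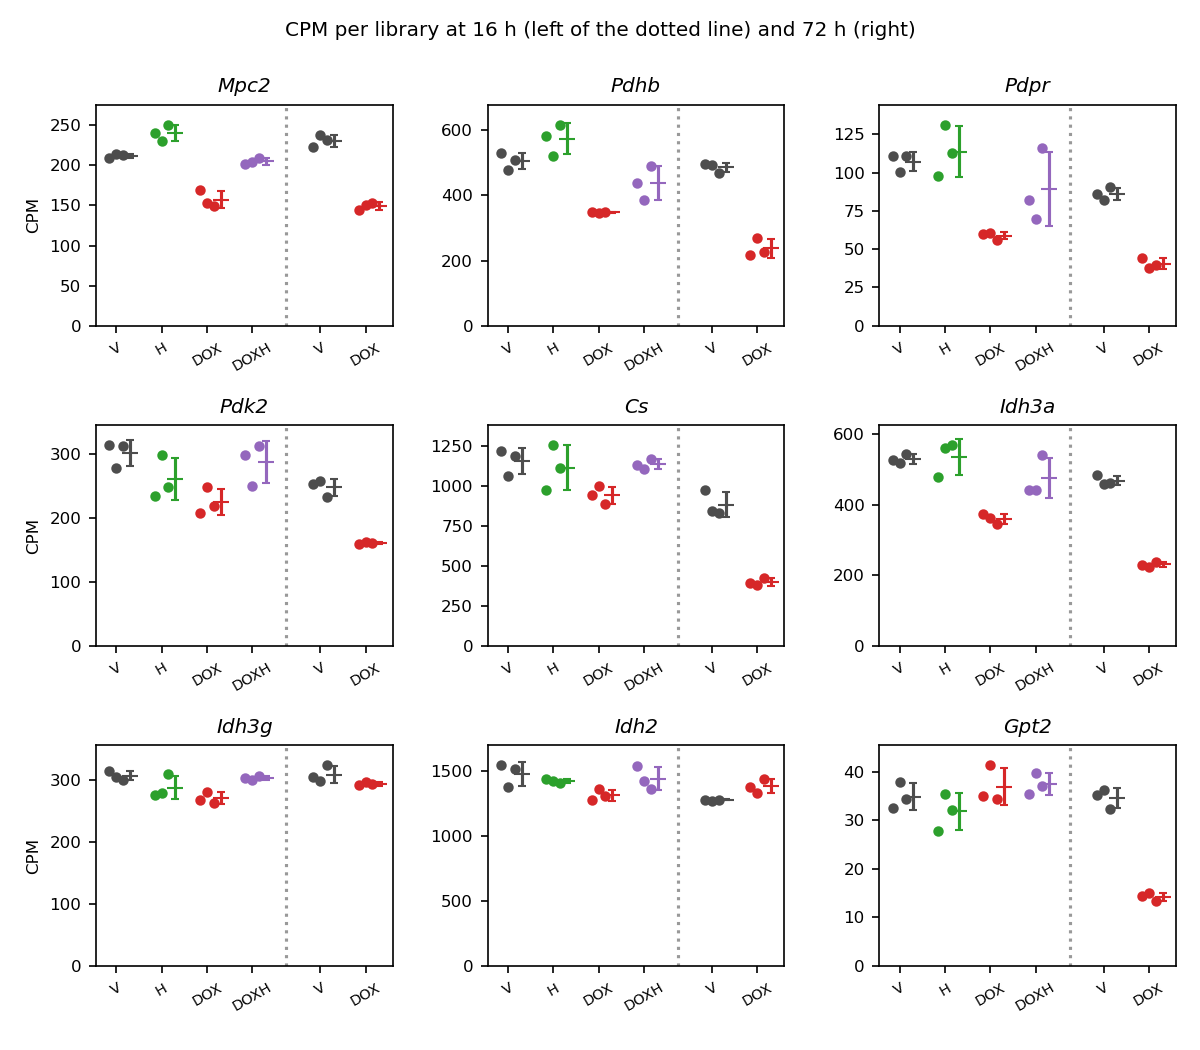
CPM (y axis, from 0) of 9 members in each library (points) with the mean ± SD of each group of 3 beside them, at 16 h left and 72 h right of the dotted line. Idh3g and Idh2 lie close to V at 72 h, while Cs, Idh3a, Pdhb, Pdpr and Gpt2 lie well below it. CPM values are not comparable across the dotted line.

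Of the 7 genes of anaplerosis, the malate-aspartate shuttle and citrate export, 2 fell at 16 h and 6 fell at 72 h. The shares of all genes were 16.6% and 27.2%. Gpt2, the mitochondrial alanine transaminase that interconverts pyruvate and alanine (chr8:85492576-85527560, plus strand), had the largest fall of any member at 72 h and no call at 16 h. It read 32.4, 37.8 and 34.3 CPM in V and 35, 41.3 and 34.4 CPM in DOX at 16 h, where the groups overlapped (0.082 ± 0.11, edgeR adjusted p = 0.585). At 72 h Gpt2 read 35.2, 36.1 and 32.2 CPM in V and 14.3, 15 and 13.4 CPM in DOX, with the DOX libraries far below V (-1.28 ± 0.087, adjusted p = 2.28e-05). Pcx, pyruvate carboxylase, which makes oxaloacetate from pyruvate, read 29.1, 30.4 and 28.5 CPM in V and 31.4, 26.2 and 35 CPM in DOX at 16 h (0.074 ± 0.11, adjusted p = 0.625). At 72 h Pcx read 22.6, 22.9 and 24.3 CPM in V and 15.8, 15.4 and 17.8 CPM in DOX, below V in every DOX library (-0.51 ± 0.089, adjusted p = 0.00134). Glud1, glutamate dehydrogenase, read 130.0, 136 and 137 CPM in V and 139, 143 and 145 CPM in DOX at 16 h (0.087, adjusted p = 0.41) and 124, 109.5 and 118 CPM in V and 74.8, 81.1 and 81.5 CPM in DOX at 72 h (-0.57, adjusted p = 0.000494). In all 3 genes DOX was below V at 72 h, while at 16 h the groups overlapped for Gpt2 and Pcx and the DOX libraries of Glud1 were slightly above V.

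Mdh1, the cytosolic malate dehydrogenase of the shuttle (chr11:21556787-21572367, minus strand), had the smallest p of the members at 16 h. It read 1575, 1512 and 1524 CPM in V and 1092, 1015 and 998 CPM in DOX at 16 h (-0.57 ± 0.085, edgeR adjusted p = 0.00251). At 72 h Mdh1 read 1605, 1666 and 1580.4 CPM in V and 1109.8, 1414.5 and 1079.6 CPM in DOX, with 1 DOX library between the others and V (-0.43 ± 0.12, adjusted p = 0.0122). The aspartate transaminases of the shuttle are Got1 in the cytosol and Got2 in mitochondria. Got1 fell by 20.6% at 16 h (adjusted p = 0.031), and it fell by 24.8% at 72 h. The 16 h call was lost without DOX replicate 2 (adjusted p = 0.0687), DOX replicate 3 (0.107), V replicate 1 (0.107), V replicate 2 (0.0509) or V replicate 3 (0.0728). Got2 differed by -0.16 at 16 h (adjusted p = 0.215) and fell by 31.7% at 72 h. Acly, ATP citrate lyase, which splits exported citrate in the cytosol, was above V at both times without passing the threshold (0.25 ± 0.14 and 0.15 ± 0.085, adjusted p = 0.181 and 0.169).

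The change with doxorubicin was then compared between the times in 1 fit over the 18 libraries and the 7407 genes of both tables. Of 34 members, the log2 change was lower at 72 h than at 16 h in 18 and higher in 1, Idh2 (edgeR adjusted p under 0.05). Over all genes, 13.8% were lower and 12.6% higher. Among the 18, the 16 h estimates of Gpt2, Glud1, Pcx and Pdp1 were above 0 (0.082, 0.087, 0.074 and 0.27). The median difference over the members was -0.32 log2 units, and 0.021 over all genes. Gpt2 had the largest difference (-1.37 ± 0.14, adjusted p = 4.85e-05), followed by smallest p by Cs (-0.86 ± 0.13, adjusted p = 0.000594), Glud1 (-0.66) and Sucla2 (-0.60). Dld (-0.52), Pcx (-0.59), Pdha1 (-0.385) and Pdp1 (-0.87) came next. All 5 genes of the pyruvate dehydrogenase complex and 8 of 11 cycle enzymes were among the 18, but neither subunit of the pyruvate carrier was (adjusted p = 0.0901 and 0.0885). Both subunits did pass by DESeq2 (adjusted p = 0.0417 for Mpc1 and 0.0291 for Mpc2). Mpc1 also passed without V replicate 1 of 72 h (edgeR adjusted p = 0.0204). Mdh1 and Got1, which had fallen at 16 h, differed little between times (0.13 ± 0.14 and -0.087 ± 0.14, adjusted p = 0.498 and 0.676). The call of Idh2 (0.27 ± 0.092, adjusted p = 0.0386) was lost without any 1 of most libraries (adjusted p up to 0.0978), as were those of Mdh2 and Suclg2 (up to 0.112 and 0.108). Each time has its own table, so table and time cannot be told apart here beyond what the V libraries of each table take up.

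Other genes of the same pathway, 48 listed with the earlier results known, are compared in the same way. At 16 h, 23 of 45 in the table fell and 1 rose (median -0.295), against 16.6% and 15.6% of all genes. At 72 h 28 of 40 fell and 4 rose (median -0.465), against 27.2% and 26.5% of all genes. Between times, the change was lower at 72 h in 10 of 39 and higher in 5 (median -0.182), against 13.8% and 12.6% of all genes. At 16 h the smallest p belonged to the lactate and pyruvate transporter Slc16a1, with 213 ± 12.1 CPM in V and 79.8 ± 10.3 CPM in DOX (-1.42, edgeR adjusted p = 0.00269). The mitochondrial carriers of the malate-aspartate shuttle fell with it: Slc25a11 by 31.5%, Slc25a13 by 59.8% and Slc25a12 by 35.7%. Succinate dehydrogenase, the cycle enzyme that is also complex II, had Sdhd, which fell by 29.8%, and Sdhc, which fell by 32.2%, and its assembly factor Sdhaf2 fell by 26.1%. Ldha, a lactate dehydrogenase subunit, fell by 27.2%.

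At 72 h Slc25a13 had the smallest p of these genes, with 110 ± 12.3 CPM in V and 38 ± 5.15 CPM in DOX (-1.53, edgeR adjusted p = 3.21e-05). Oxct1, which activates ketone bodies for oxidation, read 1237, 1018 and 1034 CPM in V and 339, 427 and 415 CPM in DOX and fell by 64.1% (adjusted p = 3.66e-05), after a fall of 18.5% at 16 h. Aldh5a1, which feeds succinate into the cycle from GABA, fell by 44.6%, and Mmut, which makes succinyl-CoA from methylmalonyl-CoA, fell by 39.3%. Ogdhl, a relative of Ogdh, fell by 43.5%. The shuttle carriers Slc25a11 and Slc25a12 fell by 46.4% and 39%. Those that rose beside Pdk4 were Pck2, mitochondrial phosphoenolpyruvate carboxykinase (0.60 ± 0.16), Mlycd, malonyl-CoA decarboxylase (0.31 ± 0.071), and Glul, glutamine synthetase (0.30 ± 0.10), with adjusted p of 0.0119, 0.00503 and 0.0297.

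Hesperitin was tested at 16 h only, in comparisons that share their V, H, DOX or DOXH libraries with each other. With hesperitin alone, 0 of 35 members passed in H against V and 0% of all genes did (edgeR). At an unadjusted p under 0.05 there were 6 members and 664 of all genes, and DESeq2 called 0 members and 12 genes. The members' median difference was 0.035 log2 units. The smallest p was that of the minor Nnt model, with 74, 66.5 and 83.8 CPM in V and 108, 96.1 and 118 CPM in H (0.52 ± 0.15, adjusted p = 0.556). Its groups did not overlap, but the other model differed in the opposite direction (-0.18), and the summed level of 412.1 to 426.6 CPM in H lay within the V range. Pdhx followed with 127, 117 and 132 CPM in H (0.235, adjusted p = 0.718) and Mpc2 with 241, 230.3 and 250.1 CPM in H (0.18, adjusted p = 0.736). Without the H library with the high neutrophil markers, 0 members passed as well.

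In DOXH against DOX, 0 of 35 members passed and 0% of all genes did (edgeR). At an unadjusted p under 0.05 there were 20 members and 1958 of all genes, and DESeq2 called 8 members, all higher, and 375 genes. The estimate was above 0 for 30 of 35 members. The members' median was 0.196 log2 units against -0.014 over all genes. Mpc2, Mpc1 and Idh3a had the smallest p. Mpc2 read 202, 204 and 209 CPM in DOXH against 169, 153 and 149.8 CPM in DOX (0.38 ± 0.069, edgeR adjusted p = 0.13). Mpc1 read 408, 412 and 408 CPM in DOXH against 344, 342 and 331 CPM in DOX (0.27 ± 0.064, adjusted p = 0.13). For both carrier subunits all DOXH libraries lay above all DOX libraries and close to each other. Both were named for their small p in this comparison, which favours such a separation. Idh3a read 442, 442 and 542 CPM in DOXH against 373, 361 and 344 CPM in DOX, with 1 DOXH library at the V level and the others between (0.40 ± 0.095, adjusted p = 0.13).

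The DOXH libraries differed from each other in most of the members that doxorubicin lowered. On a scale where the V mean is 0% and the DOX mean 100%, the median position over the 15 members lower in DOX was taken. It was 32.7% in DOXH replicate 1, 60.9% in replicate 2 and 2.52% in replicate 3. The H libraries lay at -23.9% to 15.4%, V at -10% to 16.3% and DOX at 92.5% to 109%. V and DOX set the scale and the choice of members, so their own places were fixed by construction. That choice can also place DOXH nearer to V, so only the spread between the DOXH libraries is read here. Pdpr shows the spread, with 82.2, 69.6 and 116 CPM in replicates 1, 2 and 3. The heart muscle markers had the same order, with sums of 47790, 44210 and 67380 CPM, and whether they bear on the members' order was not tested. Without DOXH replicate 2, 11 members passed in DOXH against DOX, all higher, beside 1554 of all genes. Without replicate 1 or replicate 3, 0 did.

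In DOXH against V, 0 of 35 members passed and 0% of all genes did (edgeR). At an unadjusted p under 0.05 there were 3 members and 1749 of all genes, and DESeq2 called 0 members and 131 genes. Those 3 were Mdh1, Dlst and Pdhb. Mdh1 read 1234, 1217 and 1491 CPM in DOXH (-0.23 ± 0.085, adjusted p = 0.249), below all V libraries in each. Dlst read 399, 368 and 471 CPM (-0.23 ± 0.10, adjusted p = 0.289), with 1 library inside the V range, and so did Pdhb with 438, 386 and 491 CPM (-0.21 ± 0.093, adjusted p = 0.289). Without DOXH replicate 3, 1674 of all genes and 5 members passed, a similar share, with these 3 among the 5 (adjusted p = 0.013, 0.0379 and 0.0427).

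In DOXH against H, 0 of 35 members passed, against 0.154% of all genes (16 genes, edgeR). At an unadjusted p under 0.05 there were 9 members and 2558 of all genes, a similar share, and DESeq2 called 5 members, all lower, and 718 genes. Pdhx had the smallest p, with 104, 85.7 and 101 CPM in DOXH and 127, 117 and 132 CPM in H (-0.37 ± 0.086, edgeR adjusted p = 0.0624). Pdhb came next with 582, 522 and 616 CPM in H (-0.39, adjusted p = 0.0635), then Idh1 with 27.6, 26 and 36.6 CPM in DOXH and 37.1, 44.2 and 49.9 CPM in H (-0.54, adjusted p = 0.0702). The DOXH libraries were below the H libraries in all 3 genes. These were chosen by their p in this same comparison, so the separation is no further support. Without DOXH replicate 3, 9 members passed, all lower, beside 2298 of all genes. Without H replicate 1, 1 member passed (Idh1, adjusted p = 0.044), beside 192 of all genes. Both member counts are near the share of all genes.

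The interaction asks whether doxorubicin changed a transcript by a different amount when hesperitin was given. Here 0 of 35 members passed and 0% of all genes did (edgeR). At an unadjusted p under 0.05 there were 13 members and 1228 of all genes, and DESeq2 called 0 members and 53 genes. Pdk2 had the smallest p. It read 314, 279 and 312 CPM in V, 209, 248 and 219 CPM in DOX, 235, 299 and 249 CPM in H and 299, 251 and 313 CPM in DOXH, so that DOX was below V while DOXH overlapped H (0.56 ± 0.16, adjusted p = 0.334). The main Nnt model (0.36 ± 0.105, adjusted p = 0.339) and Idh3a (0.39 ± 0.13, adjusted p = 0.366) followed. Without DOXH replicate 2, Pdk2 alone of the members passed (0.65, adjusted p = 0.0472), beside 254 of all genes, a similar share. Without H replicate 1, 0 members passed, and 29 of all genes did.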

How the data were processed

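Libraries were made from poly(A) RNA of hearts, per the labels' protocols. The authors deposited expected counts, estimated reads per gene, in 1 table per time; RSEM, DESeq2 and GRCm38 (mm10) are named in the submitters' processing notes. Versions, annotation, strand setting and the filter before deposit are not stated in any source used here. Groups came from the labels, which name 24 samples in 8 groups. At 72 h, 6 columns with a code no label uses were not used, so H and DOXH were not analysed here at that time and a planned fit of 12 libraries became one of 6. One 72 h DOX column carries a number absent from the labels and was used as an unnumbered replicate.

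After rounding of the expected counts, genes were filtered with filterByExpr and libraries scaled by TMM, which left 10393 genes at 16 h and 7703 of 7723 at 72 h. No member was removed. Group means were compared with robust quasi-likelihood tests in edgeR 4.0.16 (R 4.3.3) on all libraries of a table (8 residual degrees of freedom at 16 h, 4 at 72 h, 12 for both), with p-values adjusted by Benjamini-Hochberg across every gene in the fit and called under 0.05. The SE is the absolute log2 fold change divided by the square root of F, and a prior count of 2 entered log2 CPM. The tests were also run on simulated counts in which far fewer genes changed than were called in DOX against V. Such a run does not check them at that share of changes, and its outcome is not given here. Per-library values are given for the 8 members with the smallest p past the threshold in DOX against V at each time, the carrier, kinase, phosphatase and carboxylase genes, up to 8 by smallest p in the difference between times, the 3 with the smallest p in comparisons with no call, and for up to 8 companion genes per time. Idh2, Idh3g, the Nnt models, Pdk4, Pck2, Mlycd, Glul and the ratios were chosen after their values were seen. One companion gene is not reported here. The members and lists were chosen with earlier results of these data known. No 2 libraries of the same group agreed within sampling noise. Gene positions are from GENCODE M21 (GRCm38), matched by gene identifier, and promoters from RefSeq. Protein comparisons that had been planned were not analysed here. Alternatives were DESeq2 1.42.0, upper quartile or RLE factors, no filter or one at a mean of 5 CPM, only the groups compared, a replicate block, each library left out and, added after the data were seen, summed Nnt models.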

Additional observations from a re-analysis of the deposited data

Results flagged for a closer look

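The change with doxorubicin differed between 16 h and 72 h in 19 members, by the edgeR test of the difference itself. The log2 difference, the 72 h change minus the 16 h change, was -1.37 in Gpt2, -0.86 in Cs, -0.87 in Pdp1, -0.66 in Glud1, -0.60 in Sucla2, -0.59 in Pcx and -0.57 in Ogdh. In the pyruvate dehydrogenase complex it was -0.52 in Dld, -0.51 in Dlat, -0.505 in Pdhb, -0.44 in Pdhx and -0.385 in Pdha1. Among the other cycle enzymes it was -0.47 in Idh3a, -0.465 in Dlst, -0.44 in Suclg1, -0.33 in Suclg2 and -0.29 in Mdh2, and in the transaminase Got2 it was -0.40. Idh2 moved the other way, by 0.27. With groups of 3 libraries, no single library was tested as standing apart.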

How the results depend on the processing

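The 16 h count of 15 members lower in DOX stayed within 1.5 times under every alternative (11 to 21, with 20 by DESeq2 and 21 with only the groups compared, of which 1, Acly, was higher), and the 72 h count was 29 under all but the replicate block, which gave 28 (Mdh1 lost, adjusted p = 0.0601). At 16 h Idh3b, Idh3g, Pdha1 and Suclg1 were gained both by DESeq2 and with only the groups compared. Idh2 was gained by DESeq2, Dld with only the groups compared and Idh3b also with RLE factors. Members past the threshold in the difference between times numbered 19, and 14 to 23 under the alternatives. There DESeq2 added Mpc1, Mpc2, Fh1 and Me3. Me3 also passed with RLE or upper quartile factors, and Me3 and Mpc1 each passed in an omission of a library. Over all genes, 3352 passed at 16 h, 4571 with only the groups compared, 3469 by DESeq2 and 1928 to 2409 without 1 library. In the difference between times 1960 passed, and 1214 with the replicate block. In DOXH against DOX, 0 became 8 with DESeq2 and ranged from 0 to 11 without 1 library. In DOXH against V, leaving 1 library out gave 0 to 5. In DOXH against H, DESeq2 gave 5 and leaving 1 library out 0 to 9, and in the interaction 0 to 1. The main fits treated replicate numbers as unpaired. At 16 h same-numbered V and DOX libraries had correlations of deviations of -0.106, -0.178 and -0.111. At 72 h, with 2 shared numbers, they were 0.197 and 0.245. These few values do not settle whether the numbers pair the samples. The replicate block gave 14 members at 16 h (Cs lost, adjusted p = 0.0538), 15 in the difference between times, and 0 in all 5 comparisons with hesperitin. It turned the sign of the minor Nnt model at 72 h (0.114 for -0.045) and between times (0.018 for -0.141). Leaving 1 library out also turned uncalled values near 0: at 16 h Pcx ranged from -0.026 to 0.18, Gpt2 from -0.005 to 0.145 and the minor Nnt model from -0.095 to 0.215. At 72 h Pdk1 ranged from -0.184 to 0.009 and the minor Nnt model from -0.151 to 0.113. Between times the ranges were -0.138 to 0.057 for Pdk1, -0.011 to 0.193 for Mdh1 and -0.283 to 0.034 for the minor Nnt model. The calls of Dlst, Got2, Idh2, Mdh2, Pdhx and Suclg2 in the difference between times were each lost in at least 1 omission of a library, V replicate 2 of 16 h and V replicate 1 of 72 h leaving 14 calls. The cause of these changes was not tested, beyond the fewer samples in a fit without a library. Depth of 59 to 210 counts limits Me2, and 3 libraries per group limit calls of small changes.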
